A study of Mus musculus with 36 samples.

Results

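The colony-stimulating factor receptors and 1 of their ligands were followed through RNA-seq of lung AΦ and monocytes. They are 6 genes of the 27562 in the deposited expression table, taken by name: Csf1r, Csf2ra, Csf2rb, Csf2rb2 and Csf3r, which encode receptors or receptor subunits, and Csf1, which encodes a ligand of Csf1r. All 6 had a value in each of 36 libraries. The value is FPKM, the fragments mapped to a gene per kilobase of transcript, scaled to the mapped fragments of the library. Levels of different genes can be set beside each other only as far as the gene models behind the lengths hold.

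The cells came from chimeric male mice. The hosts were C57BL/6J animals of the CD45.2 form, irradiated with a shielded chest, given busulfan, and transplanted with marrow of B6.SJL-Ptprc a Pepc b/BoyJ donors of the CD45.1 form, and controls carried the same treatment. The chimeras then breathed filtered air (FA) or concentrated PM2.5 for 4 or 32 weeks. AΦ of CD45.2 origin (tissue-resident, TR-AΦ) were taken at both times, and AΦ of CD45.1 origin (bone marrow-derived, BM-AΦ) at 32 weeks. Monocytes of CD45.2 origin were taken at 4 weeks. Those of 32 weeks carry only a number, and Mono1 and Mono2 were read as CD45.1 and CD45.2 from the numbering of AΦ, a reading that no label states. FA and PM2.5 together with these 6 populations gave 12 groups of 3 libraries. The 32-week mice were also older than the 4-week mice, so time of exposure and age cannot be told apart. The study's methods give 3 sequenced mice per exposure and time, and the labels tie no library to a mouse, so the libraries of different populations at 1 exposure and time may come from the same mice. The tests treated them as separate, and p-values measure the spread between libraries.

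Receptors for colony-stimulating factors pass on the signals that keep myeloid cells alive and set what they become. Csf1r is a receptor tyrosine kinase for CSF1 and IL-34 and maintains monocytes and most tissue macrophages. The GM-CSF receptor pairs an α subunit, Csf2ra, that binds the cytokine with the common β subunit, Csf2rb, that signals through JAK2 and STAT5 and is shared with the IL-3 and IL-5 receptors. GM-CSF released by the alveolar epithelium is needed for AΦ to form and to clear surfactant. Mice carry another β subunit gene, Csf2rb2, whose product serves the IL-3 receptor. Csf3r binds G-CSF and is best known from neutrophils and their precursors.

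In the mm10 coordinates of the table, Csf2ra is on chromosome 19 from 61224402 to 61228418 on the minus strand, Csf3r on chromosome 4 from 126024550 to 126044440 on the plus strand, and Csf1 on chromosome 3 from 107741048 to 107760469 on the minus strand. RefSeq gives Csf2ra a longer span, from 61217191 to 61228461. The genes of both β subunits are neighbours on chromosome 15. Csf2rb2 runs from 78282517 to 78305603 on the minus strand and Csf2rb from 78325990 to 78351000 on the plus strand, with 20386 bases between them.

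These neighbours are near copies, which bears on how far their values can be separated. Their coding sequences in GENCODE M21 are 2688 bases (Csf2rb) and 2634 bases (Csf2rb2), and 2503 of 2628 aligned bases are identical (95.2%). The first 150 coding bases are shown with the mismatches in capitals. In Csf2rb they lie in exon 2 (chr15:78335207-78335294) and exon 3 (chr15:78336348-78336409), and in Csf2rb2 in exon 2 (chr15:78298142-78298229) and exon 3 (chr15:78297041-78297102).
Csf2rb: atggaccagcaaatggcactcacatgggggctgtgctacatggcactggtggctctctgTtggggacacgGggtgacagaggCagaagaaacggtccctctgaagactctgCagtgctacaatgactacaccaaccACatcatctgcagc
Csf2rb2: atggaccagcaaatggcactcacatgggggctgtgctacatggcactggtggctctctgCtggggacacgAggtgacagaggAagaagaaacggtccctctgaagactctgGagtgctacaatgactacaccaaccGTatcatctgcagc
The opening 59 bases are the same in both genes, and 6 of the 150 bases differ. Over the whole transcript, 18.9% of the 50-base windows of Csf2rb and 19.0% of those of Csf2rb2 also occur in the other gene, and for windows of 100 bases the shares were 7.16% and 7.20%. By its own sequence, a read from such a window cannot be placed in 1 gene. The study's methods give paired-end sequencing, so a mate from a stretch that differs may place it. The separate values of Csf2rb and Csf2rb2 are uncertain by what the authors' quantification did with these reads.

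The 250 bases before the start used in RefSeq's promoter table are shown for Csf2rb2 and Csf3r, which differed in opposite directions between AΦ and monocytes. The capitals mark the core of the PU.1 site, GAGGAA or its reverse complement TTCCTC. PU.1, encoded by Spi1, is a transcription factor of the myeloid lineage. Sequences are from RefSeq on GRCm38.p6, the assembly of mm10, and read in the direction of the gene, Csf2rb2 from the minus strand and Csf3r from the plus strand.
Csf2rb2 (chr15:78305722-78305971): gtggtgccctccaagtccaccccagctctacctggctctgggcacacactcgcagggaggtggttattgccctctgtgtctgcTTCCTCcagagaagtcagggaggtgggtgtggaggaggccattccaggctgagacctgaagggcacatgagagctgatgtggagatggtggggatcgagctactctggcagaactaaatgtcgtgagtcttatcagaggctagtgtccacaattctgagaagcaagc
Csf3r (chr4:126024409-126024658): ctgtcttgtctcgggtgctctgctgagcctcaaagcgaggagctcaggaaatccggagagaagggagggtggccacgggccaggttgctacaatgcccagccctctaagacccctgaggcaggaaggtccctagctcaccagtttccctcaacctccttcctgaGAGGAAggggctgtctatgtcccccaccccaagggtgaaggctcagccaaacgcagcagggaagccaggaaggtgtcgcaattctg
Each of these stretches holds 1 match, 167 bases before the start in Csf2rb2 and 86 bases before it in Csf3r. For Csf3r this start lies inside the span given above, and the last 109 bases of the stretch, the match included, lie within the gene as the expression table has it. RefSeq's span of Csf3r, from 126023441 to 126044975, takes in the whole stretch. Csf2ra has 2 matches, 14 and 8 bases before its start, and Csf1 has none in its 250 bases. Both matches of Csf2ra lie inside RefSeq's span of this gene, which reaches to 61228461. The 6 letters occur on either strand in 23.3% of 32851 promoters of this length. A match is a description of the letters and not a binding site.

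The test was limma's on log2(FPKM + 1), with Benjamini-Hochberg adjusted p for each comparison and a threshold of 0.05. A gene entered it when its libraries averaged 1 FPKM or more, which held for 12665 genes in AΦ, 12856 in monocytes and 13307 in both. All 6 members passed this minimum for monocytes and for both cell types together, and 5 passed it for AΦ, where Csf1 was too low. With 1 added to each FPKM, the fold change of a low gene such as Csf1 comes out too small. The files give no read counts, and the depth behind each FPKM is unknown. Library sums ranged from 1839580 to 2580780 FPKM in AΦ and from 2320650 to 3339020 FPKM in monocytes. Sums of marker genes separated AΦ libraries from monocyte libraries, which does not show that either was free of other cells. Mono2 also held between 1063 and 3925 FPKM of interstitial macrophage genes in sum. Summed FPKM of 9 AΦ marker genes lay between 6528 and 13974 in AΦ libraries and between 254 and 1580 in monocyte libraries, and the sum of 5 markers of classical monocytes lay between 742 and 2446 in monocytes and 2.56 and 95.7 in AΦ.

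**Figure D1:**
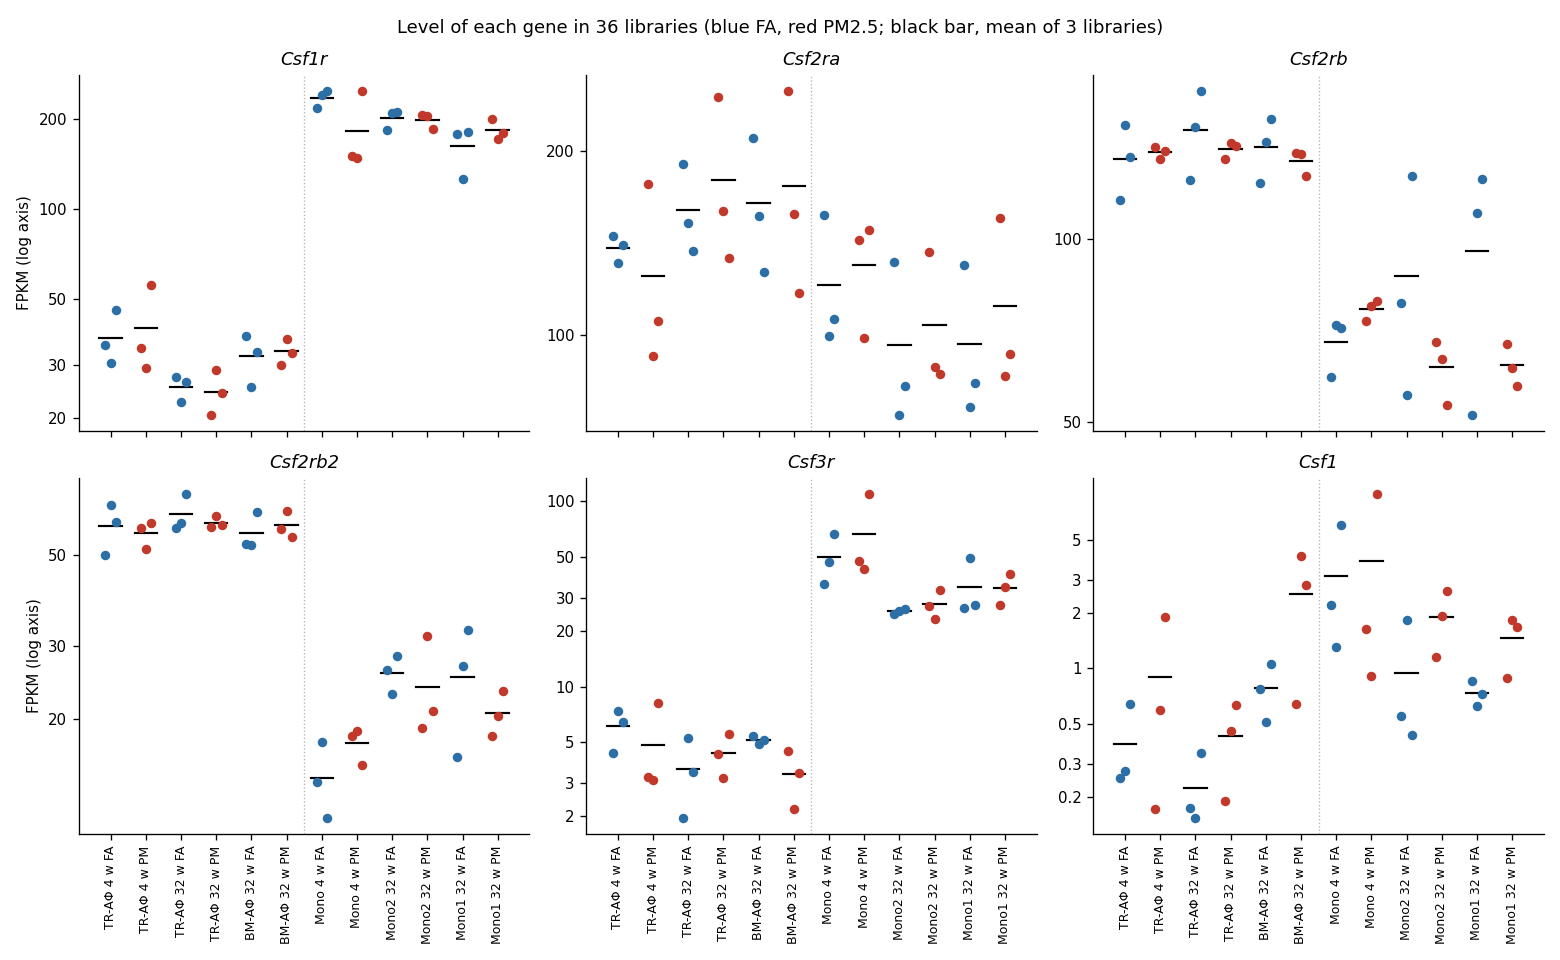
FPKM (log axis) of the 6 genes in each of 36 libraries, with FA in blue, PM2.5 in red and the mean of 3 libraries as a bar; AΦ groups stand left of the dotted line and monocyte groups right of it. Csf1r and Csf3r are higher in every monocyte library than in any AΦ library, Csf2rb2 is the reverse, and Csf2ra, Csf2rb and Csf1 overlap.

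AΦ and monocytes carried the same receptor transcripts, most of them at different levels. Monocytes were higher in Csf1r and Csf3r, AΦ were higher in both β subunits, and Csf2ra, the α subunit of the GM-CSF receptor, was high in both. Over all 18 libraries per cell type, the mean FPKM in AΦ and monocytes were 32.1 ± 8.51 and 193 ± 33.5 for Csf1r (SD), 157 ± 43.5 and 110 ± 29.1 for Csf2ra, and 140 ± 13.7 and 75.0 ± 22.9 for Csf2rb. They were 59.0 ± 5.24 and 21.2 ± 6.03 for Csf2rb2, 4.56 ± 1.67 and 39.7 ± 20.9 for Csf3r, and 0.872 ± 1.05 and 2.0 ± 2.13 for Csf1. In AΦ the levels per length thus ran from Csf2ra and Csf2rb at the top through Csf2rb2 and Csf1r to Csf3r and Csf1, and in monocytes Csf1r stood first. The 2 cell types were compared within each matched population: TR-AΦ with CD45.2 monocytes at 4 weeks, TR-AΦ with Mono2 at 32 weeks, and BM-AΦ with Mono1 at 32 weeks, FA and PM2.5 averaged. In each of the 3 comparisons 5 of 6 members passed the test, beside 48.2%, 47.3% and 50.9% of all genes tested.

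Csf1r separated the cell types in every library. It lies on chromosome 18 of mm10 from 61105572 to 61177050, on the plus strand. This span runs past the end of the gene in GENCODE M21 and covers Hmgxb3 on the opposite strand, and the strand setting of the authors' quantification is not given in the sources used here, so reads of Hmgxb3 may enter the Csf1r value. TR-AΦ of 4 weeks had 35.0, 30.5 and 45.9 FPKM under FA and 34.3, 29.4 and 55.8 under PM2.5. TR-AΦ of 32 weeks had 27.4, 22.6 and 26.5 FPKM under FA and 20.5, 28.9 and 24.3 under PM2.5. For BM-AΦ the values were 37.7, 25.5 and 33.2 under FA and 30.2, 36.9 and 33.1 under PM2.5. The highest AΦ library was thus TR-AΦ of a PM2.5 mouse at 4 weeks, and the range within AΦ was 2.72-fold. In CD45.2 monocytes at 4 weeks the values were 216, 240.0 and 247 under FA and 149.8, 148 and 247 under PM2.5. Mono1 had 177, 126 and 181 FPKM under FA and 199.6, 172 and 179 under PM2.5, and Mono2 had 183, 208 and 211 under FA and 206, 203 and 185 under PM2.5. The lowest monocyte library, of Mono1 from an FA mouse, stood at 126 FPKM and the highest AΦ library at 55.8. Of all genes tested, 16.1%, 14% and 14.7% were lower in AΦ without overlap in the 3 comparisons. The log2 difference of AΦ from monocytes was -2.41 (SE 0.15, adjusted p 2.99e-13) at 4 weeks, -2.95 for TR-AΦ and Mono2 at 32 weeks (adjusted p 9.42e-15) and -2.36 for BM-AΦ and Mono1 (adjusted p 5.42e-13). Monocytes were 5.40-fold, 7.96-fold and 5.26-fold higher in mean FPKM. The gate that sorted these cells used CD64, CD11c, CD11b, Ly6G and MHCII and not the product of Csf1r.

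Ordered by group mean, Csf1r ran from 234 ± 16.1 FPKM in monocytes of FA mice at 4 weeks down to 24.5 ± 4.20 in TR-AΦ of PM2.5 mice at 32 weeks (SD, n = 3). Of the 11 pairs of neighbours in this order, 9 overlapped in their libraries. The exceptions were the step from the first group to Mono2 of FA mice (201 ± 15.5) and the step from Mono1 of FA mice (161 ± 30.8) to TR-AΦ of PM2.5 mice at 4 weeks (39.8 ± 14.0).

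Csf3r had the largest fold difference of the receptors at 4 weeks, with monocytes above AΦ. In TR-AΦ at 4 weeks it had 4.40, 7.42 and 6.46 FPKM under FA and 3.26, 3.11 and 8.12 under PM2.5, and at 32 weeks 1.96, 5.31 and 3.48 under FA and 4.33, 3.23 and 5.53 under PM2.5. In BM-AΦ they were 5.41, 4.88 and 5.13 under FA and 4.49, 2.19 and 3.42 under PM2.5. All AΦ libraries were thus at 8.12 FPKM or below. Monocytes of 4 weeks had 35.9, 47.3 and 66.5 FPKM under FA and 47.6, 43.2 and 109.6 under PM2.5. In Mono1 the values were 26.6, 49.3 and 27.4 under FA and 27.5, 34.3 and 40.4 under PM2.5, and in Mono2 they were 24.7, 25.5 and 26.1 under FA and 27.3, 23.1 and 33.0 under PM2.5. No monocyte library came near the AΦ libraries, and replicate 2 of the PM2.5 monocytes at 4 weeks stood above all others. The log2 differences of AΦ from monocytes were -3.17 (SE 0.24, adjusted p 1.44e-11), -2.52 (adjusted p 1.34e-09) and -2.75 (adjusted p 2.52e-10) in the same order of comparisons, or 10.7-fold, 6.71-fold and 8.05-fold in mean FPKM. Neighbours in the order of the 12 group means overlapped in 10 of 11 pairs, the exception being the step from Mono2 of FA mice (25.5 ± 0.669 FPKM) to TR-AΦ of FA mice at 4 weeks (6.09 ± 1.54, SD, n = 3).

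Csf2rb2 was the reverse of Csf1r and Csf3r, and it varied least among AΦ. TR-AΦ at 4 weeks had 49.9, 66.1 and 60.1 FPKM under FA and 58.3, 51.7 and 59.9 under PM2.5, and at 32 weeks 58.3, 60.0 and 70.5 under FA and 58.4, 62.3 and 59.0 under PM2.5. BM-AΦ had 53.3, 52.9 and 63.7 FPKM under FA and 57.8, 64.2 and 55.2 under PM2.5. The highest of these 18 libraries was 1.41-fold the lowest. Monocytes of 4 weeks had 14.0, 17.6 and 11.5 FPKM under FA and 18.2, 18.7 and 15.4 under PM2.5. At 32 weeks Mono1 had 16.1, 26.8 and 32.9 under FA and 18.2, 20.3 and 23.3 under PM2.5, and Mono2 had 26.3, 23.0 and 28.4 under FA and 19.0, 31.9 and 20.9 under PM2.5. Every AΦ library was above every monocyte library, as was the case in the 3 comparisons for 13.6%, 12.9% and 16.1% of all genes tested. The log2 difference was 1.81 (SE 0.14, adjusted p 1.86e-11) at 4 weeks, 1.29 (adjusted p 1.26e-08) for TR-AΦ and Mono2, and 1.33 (adjusted p 6.84e-09) for BM-AΦ and Mono1.

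The common β subunit Csf2rb followed Csf2rb2 with a smaller difference. In TR-AΦ at 4 weeks it had 116, 153 and 136 FPKM under FA and 141, 135 and 139 under PM2.5, and at 32 weeks 125, 152 and 175 under FA and 135, 143 and 142 under PM2.5. BM-AΦ had 123, 144 and 157 under FA and 138, 138 and 127 under PM2.5. The AΦ groups overlapped one another throughout. In monocytes at 4 weeks the FPKM were 59.3, 72.2 and 71.5 under FA and 73.3, 77.6 and 79.1 under PM2.5. Mono1 had 51.3, 110.2 and 125 under FA and 67.2, 61.4 and 57.3 under PM2.5, and Mono2 had 78.5, 55.3 and 127 under FA and 67.5, 63.5 and 53.4 under PM2.5. Within the FA mice of 32 weeks, 3 of the 6 monocyte libraries thus reached above 100 FPKM while none of the PM2.5 mice did, and 2 of those 3 lay above the lowest AΦ library. Between PM2.5 and FA, Csf2rb did not pass limma's test in Mono1 or Mono2. Csf2rb differed between AΦ and monocytes by a log2 value of 0.92 (SE 0.17, adjusted p 5.68e-05) at 4 weeks, 1.02 (adjusted p 1.45e-05) for TR-AΦ and Mono2, and 0.88 (adjusted p 9.63e-05) for BM-AΦ and Mono1. The ratio of Csf2rb2 to Csf2rb in FPKM had a median of 0.430 over the AΦ libraries (0.367 to 0.467) and of 0.267 over the monocyte libraries (0.161 to 0.502). The shared windows described with the sequences apply to both terms of this ratio.

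Csf2ra was high in both cell types and did not pass the test between them at 4 weeks. TR-AΦ of 4 weeks had 145, 131 and 140.1 FPKM under FA and 177, 92.5 and 105 under PM2.5. The monocytes of 4 weeks had 157, 99.7 and 106 under FA and 143, 98.8 and 149 under PM2.5. The log2 difference was 0.07 with a 95% interval from -0.39 to 0.53 (adjusted p 0.851), and differences within this interval cannot be told apart here. At 32 weeks AΦ were higher. TR-AΦ had 190.1, 152 and 137 under FA and 245, 159 and 133 under PM2.5, and Mono2 had 132, 74.0 and 82.7 under FA and 137, 88.6 and 86.5 under PM2.5, with a log2 difference of 0.76 (95% interval 0.30 to 1.22, adjusted p 0.00623). BM-AΦ had 209.7, 156 and 127 under FA and 250.4, 158 and 117 under PM2.5, and Mono1 had 130.0, 76.2 and 83.6 under FA and 155, 85.7 and 93.3 under PM2.5, with a log2 difference of 0.70 (adjusted p 0.0110). The AΦ and monocyte libraries overlapped in all 3 comparisons. Without replicate 1 of every group the values at 32 weeks were 0.68 (adjusted p 0.121) and 0.57 (adjusted p 0.185). The change of the cell type difference from 4 weeks to 32 weeks was 0.70 with an adjusted p of 0.208 by limma, which missed the threshold. With a replicate block in limma this change passed (adjusted p 0.00277). Replicate numbers were not shown to pair libraries, but Csf2ra differed by number over all libraries in limma's test (adjusted p 5.97e-06).

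**Figure D2:**
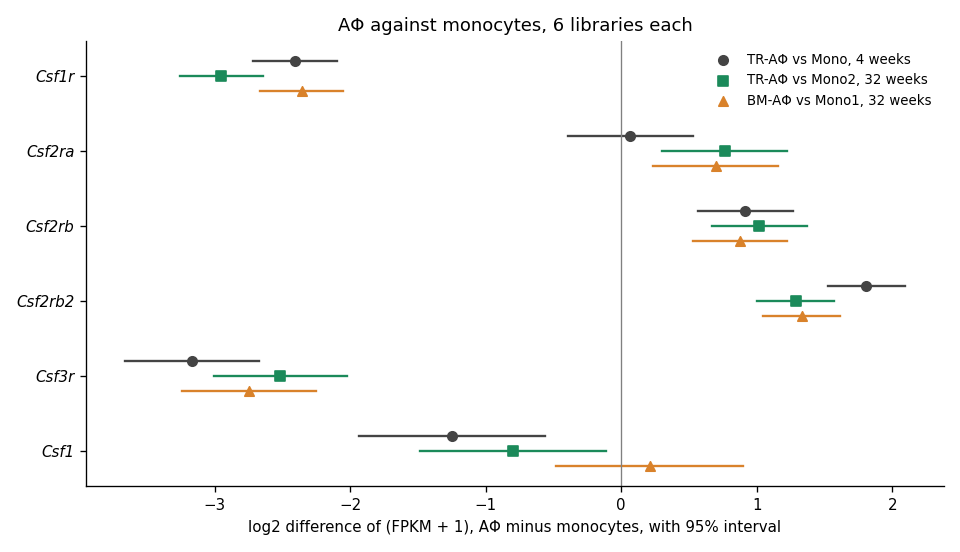
Log2 difference of AΦ from monocytes in log2(FPKM + 1) for the 6 genes in 3 matched populations, with points for the estimate and bars for its 95% interval; values right of 0 are higher in AΦ. Csf1r and Csf3r lie between -3.17 and -2.36, and Csf2rb and Csf2rb2 between 0.88 and 1.81.

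The balance between the receptors differed by cell type. The FPKM of Csf2ra were 5.16-fold those of Csf1r in the median AΦ library (1.89 to 12), and 0.561-fold in the median monocyte library (0.355 to 0.955), with no overlap. The median ratio of Csf2ra to Csf2rb in FPKM was 1.06 in AΦ and 1.55 in monocytes. The size of such ratios rests on the gene models of the table, in which the span of Csf2ra is shorter than in RefSeq.

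Csf1, the ligand of Csf1r, was near the lower limit of the measurement. It was under 1 FPKM in 14 of 18 AΦ libraries and in 7 of 18 monocyte libraries. Monocytes of 4 weeks had 2.2, 1.31 and 5.99 FPKM under FA and 1.63, 0.908 and 8.88 under PM2.5, beside 0.252, 0.275 and 0.639 in TR-AΦ under FA and 0.171, 0.596 and 1.91 under PM2.5. In both exposures the highest of the monocyte libraries was replicate 2. The log2 difference of AΦ was -1.25 (SE 0.33, adjusted p 0.00282), and without replicate 2 of both monocyte groups it was -0.67 (adjusted p 0.0575). TR-AΦ of 32 weeks had 0.173, 0.153 and 0.346 FPKM under FA and 0.189, 0.457 and 0.633 under PM2.5, the lowest set of all, and Mono2 had 0.55, 1.83 and 0.431 under FA and 1.15, 1.93 and 2.62 under PM2.5. Their log2 difference was -0.80 with an adjusted p of 0.0512, and the exact permutation test over libraries gave 0.005, the smallest p it allows. It passed without replicate 2 of the FA mice (-0.89, adjusted p 0.0441) or replicate 0 of the PM2.5 mice in Mono2 (-0.90, adjusted p 0.0424). BM-AΦ had 0.768, 0.51 and 1.06 FPKM under FA and 0.641, 4.10 and 2.84 under PM2.5, and Mono1 had 0.851, 0.624 and 0.723 under FA and 0.888, 1.83 and 1.68 under PM2.5. These overlapped, and the log2 difference was 0.21 (adjusted p 0.637).

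Of the other ligands, Csf2 and Il34 were close to absent from the sorted cells. Csf2, which encodes GM-CSF, was listed at 0 in 31 of 36 libraries and reached at most 0.497 FPKM. Il34, the other ligand of Csf1r, was listed at 0 in 33 libraries and reached 0.285 FPKM. Csf3, which encodes G-CSF, was listed at 0 in 20 libraries. In monocytes of 4 weeks it averaged 3.39 FPKM under FA and 3.33 under PM2.5, with 2.32 FPKM in the lowest of these 6 libraries, and it was highest, at 4.83 FPKM, in replicate 2 of the PM2.5 monocytes at 4 weeks. Among the partners of the common β subunit, Il3ra, the α subunit of the IL-3 receptor, lay between 0.157 and 2.78 FPKM, and Il5ra, the α subunit of the IL-5 receptor, was listed at 0 in 31 libraries with a maximum of 0.541. Il3 and Il5 were not analysed here.

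Genes that act below the receptors, given for the comparison of TR-AΦ with monocytes at 4 weeks, were mostly lower in AΦ. Of the 13307 genes tested, 3011 were called higher in AΦ and 3397 lower at 4 weeks, 3141 and 3150 in TR-AΦ against Mono2, and 3601 and 3166 in BM-AΦ against Mono1, beside which the counts of the gene lists stand. Of 8 genes of JAK-STAT signalling none was called higher and 6 lower, among them Jak2 (-1.40 on the log2 scale), Stat3 (-1.28) and Stat5b (-1.10). The median of this list was -0.87, beside -0.02 over all genes tested. None of 10 genes that act close to Csf1r was called higher and 8 lower, among them the kinase subunit Pik3cd (-2.0), the Src family kinase Lyn (-1.45), and the ubiquitin ligase Cbl (-0.98). At 32 weeks the counts of lower genes in TR-AΦ against Mono2 and in BM-AΦ against Mono1 were 4 and 6 of 8 for JAK-STAT, and 6 and 7 of 10 for the genes close to Csf1r. In BM-AΦ 1 gene of JAK-STAT signalling, Stat5a (0.37), was called higher.

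Targets of the STAT factors split. Of 5 feedback genes induced by STAT factors, Socs2 (3.42) and Cish (2.12) were called higher in AΦ at 4 weeks, and Socs3 (-2.99), Socs1 (-1.94) and Pim1 (-1.62) lower. The same 2 genes were called higher and the same 3 lower at 32 weeks in both comparisons. Of 12 genes that depend on GM-CSF in macrophages, 9 were called higher in AΦ at 4 weeks and 1 lower. This count is not independent of the sort and of the choice of genes. Itgax in this list encodes CD11c, on which AΦ were gated, and Pparg, Car4, Itgax and Siglecf are also among the AΦ markers. Siglecf, a lectin of the AΦ surface, had a log2 difference of 5.92, Car4, a carbonic anhydrase, 5.20, and Lpl, lipoprotein lipase, 4.54. Cidec, a lipid droplet protein, had a mean of 121 FPKM in TR-AΦ of 4 weeks and was listed at 0 in all monocyte libraries of that time. Cd36, a lipid receptor, was the gene called lower (-0.73). At 32 weeks 11 of 12 were called higher and none lower in both comparisons. Among 11 transcription factors of the myeloid lineage, 3 were called higher in AΦ at 4 weeks, Egr2 (3.10), Cebpa (1.68) and Runx1 (1.20), and 5 lower, among them Maf (-1.95), Ets2 (-1.86) and Klf4 (-1.70). Spi1, named for the motif shown with the promoters, had a log2 difference of -0.19, which did not pass.

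No member passed limma's test between PM2.5 and FA in any of the 6 populations, over 33 values. Their log2 fold changes lay between -0.53 and 0.62, of which 18 were positive and 15 negative. None had an unadjusted p under 0.05, the lowest being 0.0654, and the lowest adjusted p was 0.965. The same comparisons called 0.0079%, 0% and 0.0158% of all genes in TR-AΦ at 4 weeks, TR-AΦ at 32 weeks and BM-AΦ, and 0.00778%, 0% and 0% in monocytes of 4 weeks, Mono1 and Mono2. The 10 tests of whether the exposure difference itself differed between 4 and 32 weeks in TR-AΦ or between BM-AΦ and TR-AΦ lay between -0.80 and 0.63, with none called.

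Averaging over populations narrowed the intervals. In AΦ the mean PM2.5 minus FA difference on the log2 scale was -0.04 for Csf2rb (95% interval -0.21 to 0.13) and -0.02 for Csf2rb2 (-0.17 to 0.14). It was 0.02 for Csf1r (-0.26 to 0.30), -0.01 for Csf2ra (-0.39 to 0.37) and -0.21 for Csf3r (-0.61 to 0.20). In AΦ the 95% intervals reached no further than 0.21 from 0 for the β subunits and 0.39 for Csf2ra. They treat the libraries as separate, which those of different populations may not be. Changes of opposite sign in single populations would cancel in these means. In monocytes the differences were -0.08 for Csf1r (-0.33 to 0.18), 0.14 for Csf2ra (-0.25 to 0.53), -0.25 for Csf2rb (-0.63 to 0.13) and -0.03 for Csf2rb2 (-0.34 to 0.27). They were 0.15 for Csf3r (-0.26 to 0.57) and 0.36 for Csf1 (-0.30 to 1.02). The averaged comparisons called 0.0079% of all genes in AΦ and 0.00778% in monocytes.

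**Figure D3:**
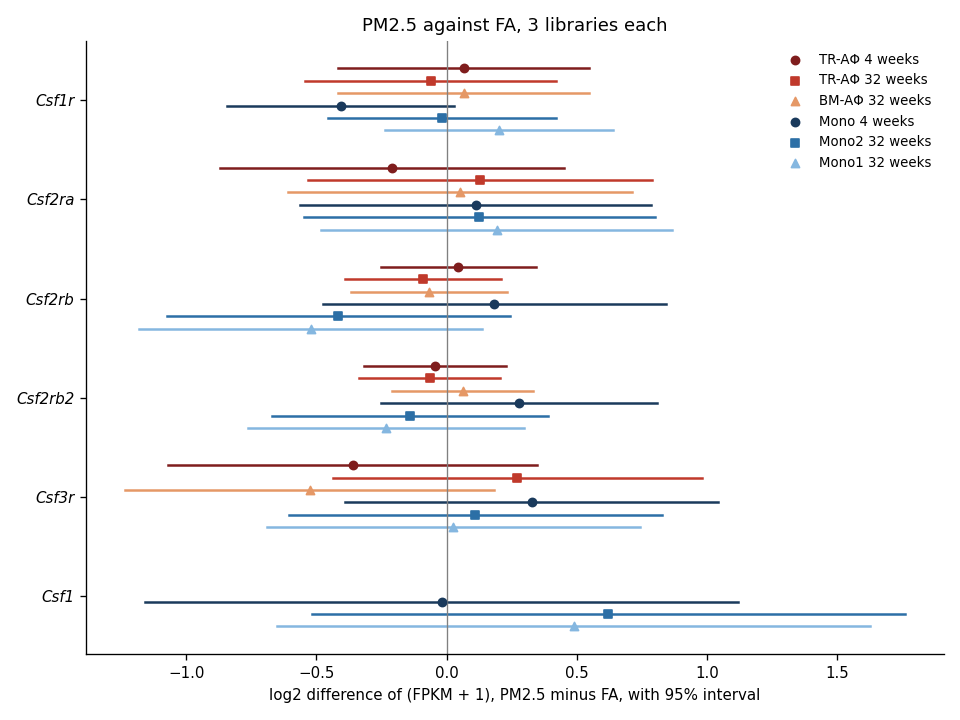
Log2 difference of PM2.5 from FA in log2(FPKM + 1) for each gene, in each population that was tested; points are estimates and bars 95% intervals. All 33 intervals include 0, and those of Csf2rb and Csf2rb2 in AΦ are the narrowest.

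In single populations the lowest p belonged to Csf1r in monocytes of 4 weeks, and 3 of the 33 values came from groups without overlap. Csf1r in monocytes of 4 weeks had 182 FPKM under PM2.5 and 234 under FA on average, with a log2 fold change of -0.41 (95% interval -0.84 to 0.03). Replicates 0 and 1 of the PM2.5 mice were below all FA libraries, and replicate 2 was level with the highest of them. Without replicate 2 of both exposures, the libraries with the highest neutrophil genes, the log2 fold change was -0.61 (95% interval -1.05 to -0.17, adjusted p 0.966). Csf3r in BM-AΦ had 3.37 FPKM under PM2.5 and 5.14 under FA, with a log2 value of -0.53 and no overlap, which was the case in this direction for 3.66% of all genes tested. Csf2rb in monocytes of 4 weeks (76.7 and 67.6 FPKM under PM2.5 and FA) and Csf1 in Mono1 (1.46 and 0.733 FPKM) were higher without overlap, beside 3.54% and 6.49% of all genes. The exact permutation test gave 0.1 for each of the 3, the smallest p for 3 libraries against 3. Csf1 in AΦ averaged over the 3 populations was 1.28 FPKM under PM2.5 and 0.464 under FA, and the exact permutation test within populations gave 0.0558. In a fit with no minimum level its log2 difference was 0.47 with an adjusted p of 0.938. The single populations had 0.85 in BM-AΦ (95% interval 0.05 to 1.65, adjusted p 1), 0.35 in TR-AΦ at 4 weeks and 0.21 in TR-AΦ at 32 weeks.

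From 4 weeks to 32 weeks, the CD45.2 monocytes fell in Csf3r and rose in Csf2rb2, while the remaining members did not pass the test. This compares Mono2 with the monocytes of 4 weeks, FA and PM2.5 averaged, and called 2 of 6 members beside 14.9% of all genes. Mean Csf3r was 26.6 FPKM at 32 weeks and 58.4 at 4 weeks, a log2 difference of -1.01 (SE 0.24, 95% interval -1.52 to -0.50, adjusted p 0.0103), and the 6 libraries of 32 weeks all lay below the 6 of 4 weeks. Mean Csf2rb2 was 24.9 and 15.9 FPKM, a log2 difference of 0.61 (SE 0.18, 95% interval 0.24 to 0.99, adjusted p 0.0295), again with no overlap. Genes without overlap made up 3.66% of all genes in the lower direction and 4.06% in the higher. The log2 differences of the other members were -0.69 for Csf1 (adjusted p 0.257), -0.34 for Csf2ra (adjusted p 0.367), -0.03 for Csf1r and -0.02 for Csf2rb. Scaling all libraries to equal sums left Csf3r at -0.88 with an adjusted p of 0.0550. Csf2rb2 did not pass without any 1 of 6 libraries, with adjusted p between 0.0528 and 0.0783. These were replicates 0 and 2 of the FA mice and 2 of the PM2.5 mice at 4 weeks, and replicates 0 and 2 of the FA mice and 1 of the PM2.5 mice in Mono2.

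Markers of other cells moved with this comparison. The summed FPKM of 11 neutrophil genes were 51.9, 27.9 and 354 in the FA libraries of 4 weeks and 34.9, 53.6 and 1078 in the PM2.5 libraries, so that replicate 2 was high in both, and 7.85 to 84.5 in monocytes of 32 weeks. Ly6g, the neutrophil surface marker on which cells were gated out, was listed at 0 in all FA libraries of 4 weeks and in replicates 0 and 1 under PM2.5, and had 2.47 FPKM in replicate 2 under PM2.5. Both libraries were also the highest of their groups in Csf3r and Csf1. Without them Csf3r had a log2 difference of -0.69 (adjusted p 0.0390) and Csf2rb2 of 0.50 (adjusted p 0.147), so 1 member was called. Genes of interstitial macrophages were all 8 called higher at 32 weeks, with a median log2 difference of 3.83 beside -0.05 over all genes. Cd163, a scavenger receptor, had 65.2 and 1.76 FPKM at 32 and 4 weeks, and the complement genes C1qa, C1qb and C1qc had 674, 526 and 548 FPKM at 32 weeks and 66.2, 55.8 and 45.8 at 4 weeks. Summed, these 8 genes lay between 1063 and 3925 FPKM in Mono2, between 458 and 1322 in Mono1 and between 108 and 605 at 4 weeks. Of 6 genes of non-classical monocytes 5 were called lower, with a median of -1.67, among them Treml4 (-2.53), Spn (-2.03), Ace (-1.74) and Itgal (-1.61). Among 6 neutrophil genes tested 1 was called lower, Retnlg, with 0.279 and 14.0 FPKM. None of 5 genes of classical monocytes, 4 of dendritic cells, 4 of red cells and 1 of lymphocytes was called, and of 4 epithelial and endothelial genes 1 was called higher and 1 lower. Of 7 AΦ genes tested 3 were called higher, Ear1 (4.20 on the log2 scale, with 31.2 and 0.592 FPKM), Plet1 (2.95, with 16.7 and 0.834 FPKM) and Siglecf (1.14), and 2 lower, Pparg (-1.80) and Ear2 (-1.13). The sum of the 9 AΦ genes lay between 343 and 1580 FPKM in Mono2 and between 404 and 738 at 4 weeks. Over all 12856 genes 908 were called higher and 1006 lower. In bulk samples a different share of cells of a type and a different amount of RNA per cell cannot be told apart, and the part of these markers in the member differences was not tested.

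**Figure D4:**
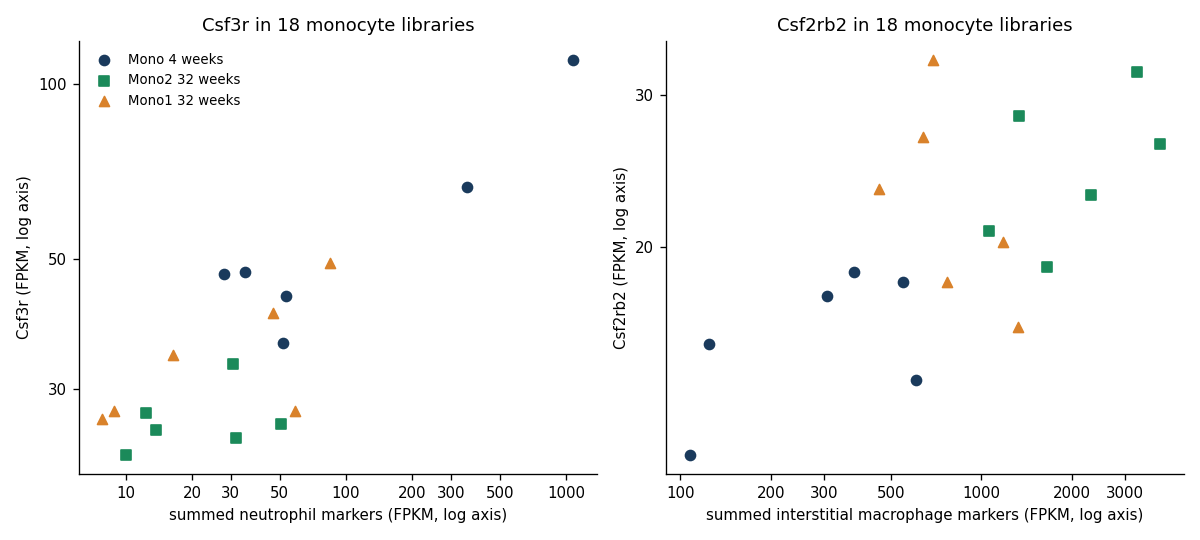
FPKM of Csf3r against the summed FPKM of 11 neutrophil genes (left) and of Csf2rb2 against that of 8 interstitial macrophage genes (right) in 18 monocyte libraries, on log axes, with the sets of 4 weeks, Mono1 and Mono2 marked apart. The libraries with neutrophil sums of 354 and 1078 FPKM are also the highest of their groups in Csf3r.

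Other genes of the pathway also differed between these monocytes. Csf3 itself was called lower at 32 weeks (log2 difference -1.71, with 0.470 and 3.36 FPKM), as were the STAT target Pim1 (-1.09), the phosphatase Ptpn6 (-1.08) and Pik3cd (-0.54), while the phosphatase Inpp5d (0.41) was called higher. No gene of JAK-STAT signalling was called. Of the genes that depend on GM-CSF, 4 were called higher, Bhlhe41 (1.71), Siglecf (1.14), Lpl (1.10) and Cidec, which was listed at 0 at 4 weeks and had 3.29 FPKM at 32 weeks. A further 3 were called lower, Fabp4 (-2.19), Pparg (-1.80) and Bhlhe40 (-1.58). Of 11 myeloid transcription factors 3 were called, among them Maf (1.57) higher and Zeb2 (-0.62) lower.

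In TR-AΦ, Csf1r was lower at 32 weeks than at 4 weeks in both exposures without passing the test in either. Its mean was 25.5 against 37.2 FPKM under FA (log2 difference -0.51, 95% interval -0.99 to -0.03, adjusted p 0.374) and 24.5 against 39.8 FPKM under PM2.5 (-0.64, -1.12 to -0.15, adjusted p 0.194). The libraries of 32 weeks lay below those of 4 weeks in both, for which the exact permutation test gave the smallest p of 0.1 each time. These comparisons called 0.782% and 1.05% of all genes, and 7.94% and 8.23% of genes were lower with no overlap. Averaged over both exposures, a comparison chosen after the values were seen, the log2 difference was -0.57 (SE 0.16, 95% interval -0.91 to -0.23, adjusted p 0.0491), beside 5.91% of all genes called. It passed in 2 of 12 fits that left out 1 library each, without replicate 0 or 1 of the PM2.5 mice at 4 weeks, and the adjusted p over the 12 ran from 0.0362 to 0.109. Marker genes of other cells moved with it. The 5 genes of classical monocytes summed to 95.7 and 77.2 FPKM in replicate 2 of the FA and PM2.5 groups of 4 weeks, also the highest libraries of their groups in Csf1r, to between 7.56 and 9.57 in the other libraries of 4 weeks, and to between 2.56 and 10 at 32 weeks. The 8 interstitial macrophage genes summed to between 242 and 862 FPKM at 4 weeks and 242 and 361 at 32 weeks, and the 6 genes of non-classical monocytes to between 244 and 558 and between 150.1 and 411. Most of the non-classical sum was 1 gene, Nr4a1. It averaged 305 FPKM under FA and 267 under PM2.5 at 4 weeks, and 192 and 163 at 32 weeks. No gene of these lists was called in either exposure by limma, with 3 of 18 tested at an unadjusted p under 0.05 under FA and 7 under PM2.5. Without replicate 2 of both groups of 4 weeks, a fit added after the values were seen, Csf1r had a log2 difference of -0.36 (95% interval -0.64 to -0.08, adjusted p 0.118). The part of these markers was not tested further. The remaining 4 members tested had an adjusted p of 0.360 or more in it. No member passed when the change from 4 to 32 weeks was compared between TR-AΦ and CD45.2 monocytes, where 7.88% of all genes were called. Of 6 members 3 had an unadjusted p under 0.05 in limma's test. For Csf1r this difference was -0.54 (adjusted p 0.126) and for Csf2rb2 -0.52 (adjusted p 0.110), and without replicate 2 of the PM2.5 monocytes of 4 weeks that of Csf1r was -0.66 (adjusted p 0.0433).

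AΦ of both origins at 32 weeks differed in no member by limma's test, which called 0.316% of all genes. Csf1r, the only member with an unadjusted p under 0.05 (1 of 5 tested), had 32.8 FPKM in BM-AΦ and 25.0 in TR-AΦ, with a log2 difference of 0.37 (95% interval 0.03 to 0.71, adjusted p 0.591), and an exact permutation p of 0.02. Markers moved here too. The genes of classical monocytes summed to between 9.04 and 43.1 FPKM in BM-AΦ and 2.56 and 10 in TR-AΦ, those of interstitial macrophages to between 309 and 575 and between 242 and 361, and the 6 of dendritic cells to between 8.93 and 29.8 and between 1.46 and 4.86. Of 3 dendritic cell genes tested 1 was called higher, the chemokine receptor Ccr7 (2.29, with 5.40 and 0.251 FPKM), and of 9 AΦ genes 1 lower, the scavenger receptor Marco (-3.78). None of 4 classical monocyte and 8 interstitial macrophage genes was called by limma, with 1 and 4 of them at an unadjusted p under 0.05. The part of these markers in the Csf1r difference was not tested. In monocytes its direction was opposite, with 172 FPKM in Mono1 and 199 in Mono2 (log2 difference -0.22, adjusted p 0.723). The difference between both was 0.59 (95% interval 0.16 to 1.03, adjusted p 0.242), in a test that called 1.08% of all genes. Csf1 was below the minimum for this fit. It lay between 0.51 and 4.10 FPKM in BM-AΦ and between 0.153 and 0.633 in TR-AΦ, with means of 1.65 and 0.325, and the exact permutation test within exposures gave 0.005, the smallest it allows. In the fit with no minimum level its log2 difference was 0.85 (SE 0.26, adjusted p 0.356). No member passed between Mono1 and Mono2, where 0.669% of all genes did, and 0 of 6 had an unadjusted p under 0.05 in limma's test. Between these monocytes 3 of the 8 interstitial macrophage genes were called lower in Mono1, Cd163 (-3.57), Folr2 (-3.32) and Lyve1 (-2.75).

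Csf2ra also varied with the replicate number. Replicate 0 had the highest Csf2ra of its group in 11 of 12 groups, as the per-library values show, the exception being PM2.5 monocytes of 4 weeks. Relative to the group mean, replicates 0, 1 and 2 stood at 0.40, -0.21 and -0.19 on the log2 scale. The test across the 3 numbers gave an adjusted p of 0.0158 in AΦ and 0.00434 in monocytes, where 8.17% and 11.8% of all genes passed, and 24.7% did over all 36 libraries. The labels do not say what the number stands for, and what lies behind its effect on Csf2ra was not tested. With a replicate block, Csf2ra passed in Mono2 against monocytes of 4 weeks. It also passed in the change of the cell type difference with time, and neither passed without the block. Each group holds 1 library of each number, so the comparisons between groups are balanced over it.

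**Figure D5:**
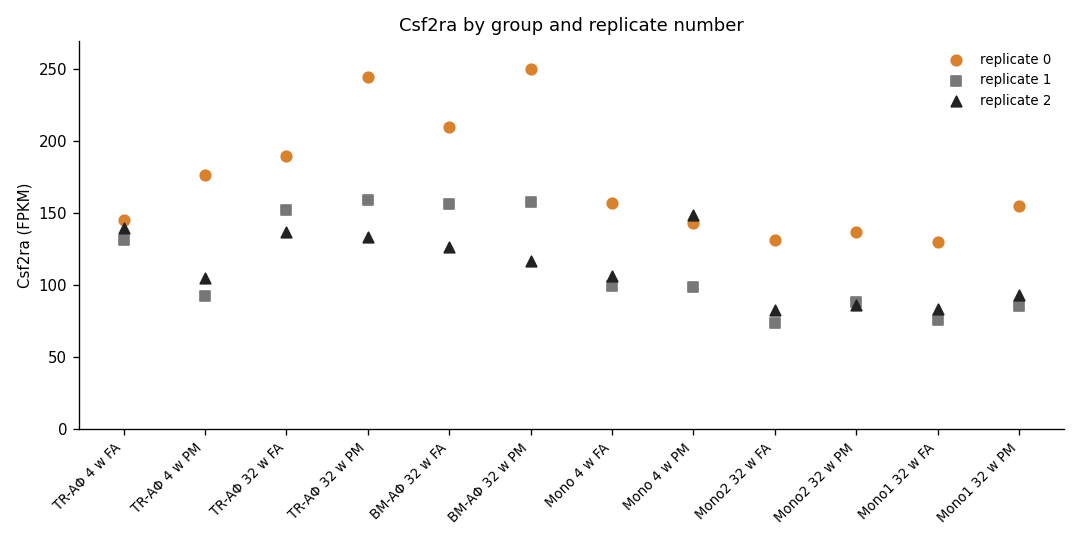
FPKM of Csf2ra (y axis from 0) in each of the 12 groups (x axis), with 1 point per library marked by its replicate number (0, 1 and 2). Replicate 0 is the highest library in 11 of 12 groups.

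The members differed in which genes their levels resembled. Over the 12 group means of log2(FPKM + 1), among the 8094 genes averaging 5 FPKM or more and above 0 in at least 12 libraries, the closest to Csf1r were Atp2b1 (Pearson r 0.995), Eps15 (0.995) and Med13l (0.994). Csf2rb2 was closest to Ptgfrn (0.996), Bckdhb (0.993) and Hsd17b4 (0.993), and Csf3r to Grk6 (0.995), Vps37b (0.994) and Klf3 (0.994). For Csf2rb they were Ptger2 (0.987), Agpat9 (0.986) and Dhrs7b (0.985), and for Csf2ra Uhmk1 (0.975), Arl6ip1 (0.974) and Fam168a (0.973). Csf1 had no gene above 0.883, the r of Ensa. The 12 means share the division into AΦ and monocytes, which sets most of these values. Within a cell type, over 18 libraries, Csf2rb and Csf2rb2 had an r of 0.78 in AΦ and 0.46 in monocytes, and share read windows. Csf3r and Csf1 had an r of 0.72 in monocytes, where both were highest in the libraries with the highest neutrophil genes, and -0.11 in AΦ.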

How the data were processed

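RNA of AΦ and monocytes sorted from lung was sequenced by the authors after library preparation with a SMART-Seq Stranded mRNA kit. Per the labels and the study's methods, reads were trimmed, aligned with STAR to mm10 and quantified with Cufflinks and Cuffdiff. The deposited values are FPKM, normalized by the authors for transcript length and mapped fragments, 1 column for each of 36 libraries. The study's methods state a general read number for the paired-end sequencing and none for single libraries. The depth of each library is unknown, since FPKM are not counts, and no counting interval can be given.

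Values entered limma 3.58.1 (R 4.3.3) as log2(FPKM + 1), with 1 mean per group and a variance trend. The models held 18 AΦ, 18 monocyte or all 36 libraries, and a gene was tested when its FPKM in them averaged 1 or more. There were 16 contrasts and 4 interactions. Adjusted p are Benjamini-Hochberg values within a comparison. Single members were also compared by exact two-sided permutation within strata. Values listed at 0 were kept. The procedure was tested on simulated data. The 6 members and 16 gene lists were chosen with earlier results of these data known. Named were all members, ligands and β chain partners, and up to 4 genes per direction with the largest change past the threshold in the other lists. The genes most like a member were the 3 with the highest r. Alternatives were a pseudocount of 0.1, no minimum level, quantile normalization, fits of only the groups compared, a replicate block and leaving out each library. Scaling to equal sums, averaging TR-AΦ over exposures for the change with time, leaving out all libraries of a number, leaving out the 2 libraries highest in neutrophil genes, and leaving out 2 TR-AΦ libraries high in classical monocyte genes were added after the values were seen. Sequences came from GENCODE M21 and RefSeq, read with Biopython 1.88 and pandas 2.3.3. Python 3.11.15 with matplotlib 3.10.9 drew the figures. Flow cytometry and histology were not analysed here. Results for some genes of the lists are not reported here.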

Additional observations from a re-analysis of the deposited data

How the results depend on the processing

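The differences of Csf1r, Csf3r, Csf2rb and Csf2rb2 between AΦ and monocytes kept their direction and passed under every alternative run. The comparison of Mono2 with monocytes of 4 weeks was less stable. It called 2 members, 4 with a replicate block (Csf2ra and Csf1 added), 1 with libraries scaled to equal sums, and 0 to 2 with libraries left out, 0 being reached when all libraries of a replicate number were left out. The change with time between AΦ and monocytes called 0 members, 2 with quantile normalization (Csf1r at -0.87 and Csf2rb2 at -0.66), 2 with the replicate block (Csf1r, adjusted p 0.0325, and Csf2ra, adjusted p 0.00277) and 0 to 1 with libraries left out. The difference by origin between AΦ and monocytes called 0 members and 1, Csf1r, with the replicate block by exposure. TR-AΦ against Mono2 called 5 members and 6 with either block (Csf1 added at -0.80, adjusted p 0.00661 and 0.00535). The block changed no other count of members called. Replicate numbers were not shown to pair libraries, with no comparison in which every pair of the same number correlated above 0.1. Over all libraries, limma's test across the numbers nonetheless passed for 24.7% of all genes, Csf2ra among them (adjusted p 5.97e-06). The causes were not tested. Csf1 in TR-AΦ against Mono2 passed with a pseudocount of 0.1 (-1.72).

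Mean exposure differences of the members tested in AΦ, and of Csf2rb2 and Csf3r in monocytes, turned in sign under some alternatives. None of the mean exposure differences passed. In AΦ they were 0.014 for Csf2ra, 0.0045 for Csf2rb and 0.010 for Csf2rb2 with quantile normalization, and in monocytes 0.0061 for Csf2rb2 at equal sums. With libraries left out they ranged in AΦ from -0.16 to 0.079 for Csf2ra (to 0.056 without a replicate number, and from -0.11 to 0.075 without libraries of PM2.5 BM-AΦ), -0.15 to 0.038 for Csf2rb, -0.080 to 0.053 for Csf2rb2 (from -0.053 without libraries of FA TR-AΦ at 4 weeks), -0.10 to 0.16 for Csf1r (-0.065 to 0.085 without those of PM2.5 TR-AΦ at 4 weeks) and -0.37 to 0.11 for Csf3r, and in monocytes from -0.13 to 0.039 for Csf2rb2 (to 0.037 without a replicate number) and -0.032 to 0.36 for Csf3r. Scaling to equal sums moved the median of all genes between AΦ and monocytes to 0.21, 0.15 and 0.36 in the 3 comparisons, and the genes called higher and lower in AΦ from 3011 and 3397 to 4288 and 2117 at 4 weeks, from 3141 and 3150 to 3837 and 2382 for TR-AΦ and Mono2, and from 3601 and 3166 to 5522 and 1858 for BM-AΦ and Mono1. The limits are 3 libraries per group, the unknown depth of each library, and the age that goes with time.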
